A study of Homo sapiens with 32 samples.

Results

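The 10 genes described here encode the dual-specificity phosphatases that switch off mitogen-activated protein kinases (MAPKs), and they were taken by name as 10 of the 48804 Ensembl genes of the count table. They fall into 3 classes by the substrates known for their proteins. DUSP5, which acts in the nucleus, and DUSP6, DUSP7 and DUSP9, which act in the cytoplasm, prefer ERK. DUSP1, DUSP2 and DUSP4 are nuclear phosphatases that are quickly induced and take several MAPKs. DUSP8, DUSP10 and DUSP16 prefer the stress kinases JNK and p38. The question was how ERK-selective phosphatases compare with those of JNK and p38 across treatment and time.

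RNA-seq was made from MDA-MB-468, an established triple-negative breast cancer line with amplified EGFR. Cells received PBS (control), 0.5 μM salinomycin (Sal), a polyether antibiotic that carries ions across membranes, 15 μM dasatinib (Das), an inhibitor of Src and Abl family kinases, or both at these doses (S + D). Treatment lasted 24 or 72 h, and each of the 8 combinations had 4 biological replicates, so that 32 libraries were sequenced. Every condition used this 1 line without genetic change and a single dose per drug, so the data hold no dose series and no second line.

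MAPKs are active when their activation loop carries phosphate on both a threonine and a tyrosine, and these enzymes remove both. ERK answers mainly to growth factor receptors such as EGFR, while JNK and p38 answer mainly to stress and cytokines. Several of the phosphatase genes are themselves switched on by the kinase that their product turns off, which makes a negative feedback loop. DUSP6, with SPRY4, ETV4 and ETV5, is widely used as an mRNA readout of ERK activity. No protein or phosphorylation was measured in these libraries, and only mRNA is described.

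Libraries held from 25692561 to 42769687 counts. In each condition 3 libraries carry a replicate number and 1 carries none, and the 8 libraries without a number deviated together from their groups (correlations of their deviations from the group means from 0.61 to 0.69 at 24 h and from 0.53 to 0.63 at 72 h). They are listed last in each set of values below. For the members and the counts over gene lists, results are also given from the numbered libraries only where a call changed. Of the numbered libraries, replicate 3 of Das at 72 h stood apart for several members. Of markers expected to be high in the line, EGFR stood at 2750 to 5930 CPM (counts scaled to the size of the library). EPCAM stood at 208 to 388 CPM, KRT81 at 113 to 734, KRT5 at 27.8 to 914 and KRT17 at 7.72 to 232. KRT6B, also expected to be high, was low at 0 to 14 CPM. PGR stayed at or under 0.0891 CPM and ESR1 at 3.66 to 12 CPM. Of 6 markers of fibroblasts, leukocytes and endothelium found in the table, COL1A1 reached 118 CPM and the others stayed at or under 2.18 CPM. Changes were called where the adjusted p lay below 0.01 (edgeR quasi-likelihood test, Benjamini-Hochberg over all genes tested). The p-values measure the spread between these biological replicates. The main fit had no term for the libraries without a number. Its spread therefore includes their shared deviation, and it treats these libraries as independent. All 10 members passed the filter on low counts in every fit. Shares of all genes given below are from edgeR at an adjusted p under 0.01. Counts at an unadjusted p under 0.05 or by DESeq2 have no such share.

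The genes lie on 9 chromosomes (GRCh37). Of the ERK-selective class, DUSP5 (ENSG00000138166) lies at chr10:112257665-112271291, DUSP6 (ENSG00000139318) at chr12:89741012-89746278, DUSP7 (ENSG00000164086) at chr3:52082935-52090587 and DUSP9 (ENSG00000130829) at chrX:152907946-152916781. Of the nuclear class, DUSP1 (ENSG00000120129) lies at chr5:172195099-172198198, DUSP2 (ENSG00000158050) at chr2:96808908-96811179 and DUSP4 (ENSG00000120875) at chr8:29190581-29208201. Of the JNK and p38 class, DUSP8 (ENSG00000184545) lies at chr11:1575281-1593501, DUSP10 (ENSG00000143507) at chr1:221874766-221915431 and DUSP16 (ENSG00000111266) at chr12:12626216-12715797.

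DUSP6 shares 28.6% of its exon bases with a gene on the opposite strand that is not listed in the table, and whether strand was used in counting is not given in the sources used here. DUSP8 has pseudogene copies: 1.76% of the 50-base words of its transcripts recur in DUSP8P1 to DUSP8P5. DUSP8P5 held 24 to 116 counts per library, where DUSP8 held 149 to 379 in the 24 h controls. How many reads were exchanged between them was not tested. The other 9 members shared none of their 50-base words with another gene's transcripts read in the same direction. Reverse complements were not searched, so this does not cover the opposite-strand overlap of DUSP6.

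Promoter sequence is shown for 3 members. RefSeq windows (GRCh38.p14), from 250 bases before to 50 bases after a start, were found for 8 of the 10 members, in 10 windows. DUSP4 and DUSP5 had no window and were not searched. Of the 8 searched, DUSP1 and DUSP8 alone held a match to a motif, and DUSP6 is shown because its level fell most. Each line gives the 250 bases before the start, 5′ to 3′ on the gene's strand, with matches to the cAMP response element TGACGTCA in capitals.
DUSP1, minus strand of chr5:172771196-172771445: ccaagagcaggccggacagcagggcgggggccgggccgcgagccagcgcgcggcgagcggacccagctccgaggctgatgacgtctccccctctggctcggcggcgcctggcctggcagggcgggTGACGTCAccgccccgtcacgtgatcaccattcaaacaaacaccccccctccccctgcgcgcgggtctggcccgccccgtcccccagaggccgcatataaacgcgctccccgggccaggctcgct
DUSP8, minus strand of chr11:1572272-1572521: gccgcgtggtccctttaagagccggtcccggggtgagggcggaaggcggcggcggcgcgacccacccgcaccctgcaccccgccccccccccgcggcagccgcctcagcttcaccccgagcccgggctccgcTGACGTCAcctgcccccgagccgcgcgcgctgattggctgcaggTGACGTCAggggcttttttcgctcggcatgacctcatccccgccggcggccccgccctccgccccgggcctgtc
DUSP6, minus strand of chr12:89352502-89352751: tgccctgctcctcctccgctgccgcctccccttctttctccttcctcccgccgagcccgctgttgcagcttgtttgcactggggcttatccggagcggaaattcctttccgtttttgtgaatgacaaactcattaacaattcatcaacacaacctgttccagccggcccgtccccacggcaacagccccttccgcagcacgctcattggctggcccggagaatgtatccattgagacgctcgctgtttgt

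The DUSP1 window holds 1 match, whose first base lies 125 bases before the start, and the DUSP8 window holds 2, at 118 and 74 bases before it. Of all 35116 windows of 300 bases, 1.85% hold this motif on either strand. The AP-1 motif TGANTCA, in 7.71% of all windows, and the ETS motif CCGGAA, in 17.2%, had no match in any window of a member. Both strands were searched, and none of the motifs contains another. These matches describe letters in a window and were not measured as binding.

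With 72 h of S + D, every member differed from the control: 4 were higher and 6 lower, where 26.9% of all 16682 genes tested were higher and 27.8% lower. With 72 h of Sal, 3 were higher and 4 lower, against 26.3% and 26.8% of all genes. With 72 h of Das, 4 were higher and 2 lower, against 10.4% and 9.32%. The 3 comparisons share their control libraries. In the numbered libraries alone, S + D gave 4 higher and 5 lower members, Sal 3 and 6 and Das 3 and 4, against 28.4% and 29.6%, 27.8% and 29.6%, and 11.2% and 11.5% of all genes. With Sal and with S + D each of the 3 classes held members called in opposite directions, and with Das the ERK-selective class did, or all 3 classes in the numbered libraries alone. In cultured cells measured in bulk, a change in the share of cells that express a gene cannot be told apart from a change in RNA per cell.

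**Figure D1:**
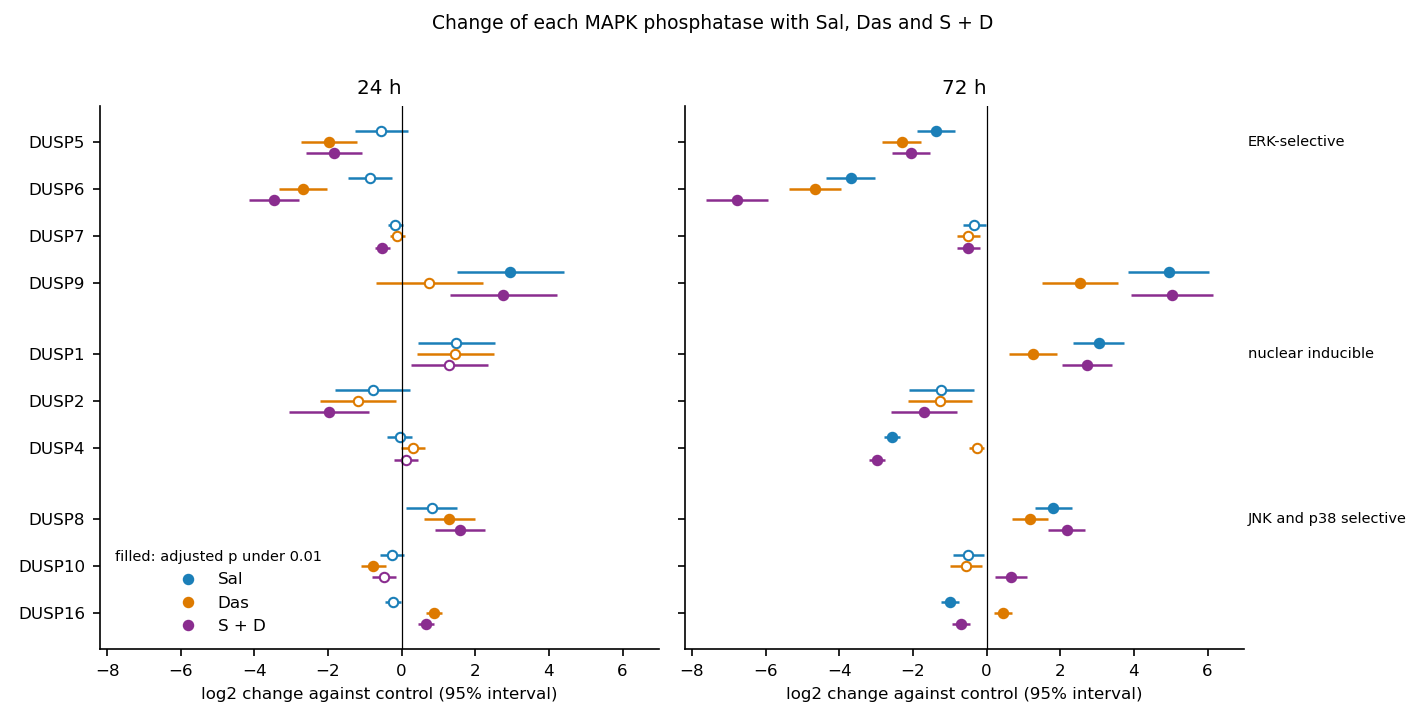
Log2 change of each phosphatase mRNA against the control of its time point (horizontal axis), at 24 h (left) and 72 h (right), with the 95% interval of the edgeR fit of 16 libraries; filled points have an adjusted p under 0.01. At 72 h DUSP6 lies farthest to the left with each treatment and DUSP9 farthest to the right, both of the ERK-selective class.

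DUSP6, the cytoplasmic ERK phosphatase and ERK target, had the largest fall of the members. At 72 h it stood at 20.5, 21.7, 20.0 and 14.7 CPM in control libraries, at 1.58, 1.67, 1.41 and 1.35 CPM with Sal, and at 0.898, 0.859, 1.13 and 0.220 CPM with Das. With S + D it stood at 0.316, 0.181, 0.0891 and 0.110 CPM, which are 10, 7, 3 and 4 reads. No control library overlapped a treated one, and the lowest values were those of S + D except for the Das library without a number, which lay below the highest S + D library. The log2 change was -3.69 ± 0.32 (SE) with Sal (adjusted p = 6.23e-08), -4.67 ± 0.34 with Das (adjusted p = 4.81e-08) and -6.78 ± 0.40 with S + D (adjusted p = 1.04e-09), the last a 110-fold lower fitted level that rests on few reads.

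DUSP9, a cytoplasmic ERK phosphatase whose gene lies on the X chromosome, moved the other way. It stood at 1.35, 1.22, 1.85 and 1.66 CPM in the 72 h control, at 58.5, 38.4, 41.1 and 51.4 CPM with Sal and at 51.8, 49.3, 47.5 and 52.0 CPM with S + D. Every Sal and S + D library lay above every control, and the Sal and S + D ranges overlapped. The rise was 30.8-fold with Sal (log2 change 4.94 ± 0.52, adjusted p = 4.57e-07) and 32.8-fold with S + D (5.03 ± 0.52, adjusted p = 3.31e-07).

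With Das alone, DUSP9 stood at 12.8, 9.59, 0.750 and 12.3 CPM, so that replicate 3 lay below all controls and the other 3 libraries above them. Its log2 change was 2.53 ± 0.49 (adjusted p = 0.000938), and 2.93 without replicate 3 of Das (adjusted p = 5.43e-09).

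DUSP5, the nuclear ERK phosphatase, fell with each treatment at 72 h. Control libraries stood at 21.3, 20.7, 21.6 and 31.0 CPM, Sal at 7.67, 8.93, 8.36 and 11.8 CPM, Das at 4.27, 4.19, 3.5 and 7.20 CPM, and S + D at 5.46, 4.17, 4.93 and 8.11 CPM. In each group the library without a number was the highest, and no treated library reached the controls. Its log2 change was -1.37 ± 0.24 with Sal (adjusted p = 8.38e-05), -2.31 ± 0.25 with Das (adjusted p = 4.9e-06) and -2.06 ± 0.25 with S + D (adjusted p = 1.38e-06).

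DUSP7, the remaining cytoplasmic ERK phosphatase, moved least in its class. Its means at 72 h were 12.8 ± 1.69 CPM (SD, n = 4) in the control, 10.3 ± 1.99 under Sal, 9.14 ± 0.918 under Das and 9.13 ± 1.09 under S + D. The fall of 0.49 on the log2 scale with S + D passed the test (adjusted p = 0.00857), but in 10 of 16 fits that left out 1 library it did not, with the highest adjusted p of 0.0411 without S + D replicate 4. With numbered libraries only, its adjusted p was 0.0202.

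Of the nuclear class, DUSP1, a phosphatase induced by stress as well as by mitogens, rose. Its 72 h libraries stood at 6.64, 7.11, 7.28 and 5.28 CPM in the control, at 58.7, 55.3, 54.7 and 50.3 CPM with Sal, and at 53.0, 46.3, 45.8 and 29.4 CPM with S + D. No Sal or S + D library came near the controls, and the library without a number was the lowest in both. On the log2 scale the change was 3.05 ± 0.33 with Sal (adjusted p = 5.09e-07) and 2.72 ± 0.32 with S + D (adjusted p = 1.25e-06).

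With Das, DUSP1 stood at 25.3, 22.2, 6.44 and 10.0 CPM, and replicate 3 lay within the control range. The log2 change of 1.27 ± 0.31 (adjusted p = 0.00505) was not called in 6 of 16 fits that left out 1 library, namely each of the 4 controls and Das replicates 1 and 2, with the highest adjusted p of 0.0256 without Das replicate 1. Without Das replicate 3 it was 1.55 (adjusted p = 0.000128).

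DUSP4, a nuclear phosphatase of ERK and other MAPKs, split the drugs. It stood at 72 h at 173, 173, 175 and 159 CPM in the control, at 30.3, 29.1, 30.0 and 25.7 CPM with Sal, and at 21.6, 25.2, 19.7 and 20.5 CPM with S + D. With Das it stood at 138, 152, 134 and 144 CPM. The Sal and S + D libraries were far below all others, while the Das range lay just under that of the control. The fitted log2 change was -2.57 ± 0.10 with Sal (adjusted p = 5.33e-11) and -2.97 ± 0.10 with S + D (adjusted p = 3.9e-12), against -0.27 ± 0.10 with Das (adjusted p = 0.0407, not called).

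DUSP2, a nuclear phosphatase best known from activated lymphocytes, was low throughout, with means from 1.14 to 4.91 CPM. At 72 h it stood at 2.31, 2.25, 3.47 and 6.73 CPM in the control and at 0.947, 1.06, 0.743 and 1.79 CPM with S + D, whose ranges did not overlap. The log2 change with S + D was -1.70 ± 0.42 (adjusted p = 0.00198, and 0.0120 without the unnumbered control, which ended the call). With Sal it was -1.22 (adjusted p = 0.0160) and with Das -1.26 (adjusted p = 0.0264). In the numbered libraries alone, the adjusted p was 0.00358 for Sal and 0.000875 for Das.

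Of the JNK and p38 class, DUSP8 rose with each treatment. Its 72 h libraries stood at 5.81, 6.42, 6.97 and 9.20 CPM in the control, at 27.0, 21.9, 22.4 and 29.5 CPM with Sal, at 21.6, 18.2, 7.5 and 17.6 CPM with Das and at 30.2, 32.2, 33.5 and 33.3 CPM with S + D. Replicate 3 of Das was the only treated library within the control range. The log2 change was 1.81 ± 0.24 with Sal (adjusted p = 4.35e-06), 1.18 ± 0.24 with Das (adjusted p = 0.00118) and 2.18 ± 0.24 with S + D (adjusted p = 6e-07).

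DUSP16 had opposite signs with the single drugs at 72 h. It stood at 55.6, 52.1, 52.6 and 48.7 CPM in the control, at 26.9, 26.9, 27.8 and 23.9 CPM with Sal, at 62.0, 66.3, 79.2 and 78.3 CPM with Das and at 27.8, 35.3, 37.5 and 30.0 CPM with S + D. All Das libraries lay above and all Sal and S + D libraries below the controls. Its log2 change was -1.0 ± 0.12 with Sal (adjusted p = 1.25e-06) and -0.68 ± 0.12 with S + D (adjusted p = 5.85e-05). With Das it was 0.44 ± 0.12 (adjusted p = 0.00742), a call lost with numbered libraries only (adjusted p = 0.0328) and in 10 of 16 fits that left out 1 library, up to 0.0240 without the unnumbered control.

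DUSP10, a phosphatase of p38 and JNK in cytoplasm and nucleus, differed between single drugs and their combination. It stood at 72 h at 8.03, 6.85, 7.11 and 4.8 CPM in the control, at 3.58, 4.53, 4.27 and 6.69 CPM with Sal, at 5.17, 5.51, 3.72 and 3.87 CPM with Das and at 11.6, 10.7, 10.9 and 9.52 CPM with S + D. All S + D libraries lay above all 12 others. The rise with S + D was 0.67 ± 0.20 (adjusted p = 0.00782), which 7 of 16 fits without 1 library did not call, up to an adjusted p of 0.0311 without the unnumbered control, and which numbered libraries gave as 0.58 (adjusted p = 0.00522). On the log2 scale the change was -0.49 with Sal (adjusted p = 0.0432) and -0.57 with Das (adjusted p = 0.0421). With numbered libraries only these were -0.84 (adjusted p = 0.000448) and -0.62 (adjusted p = 0.00931).

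**Figure D2:**
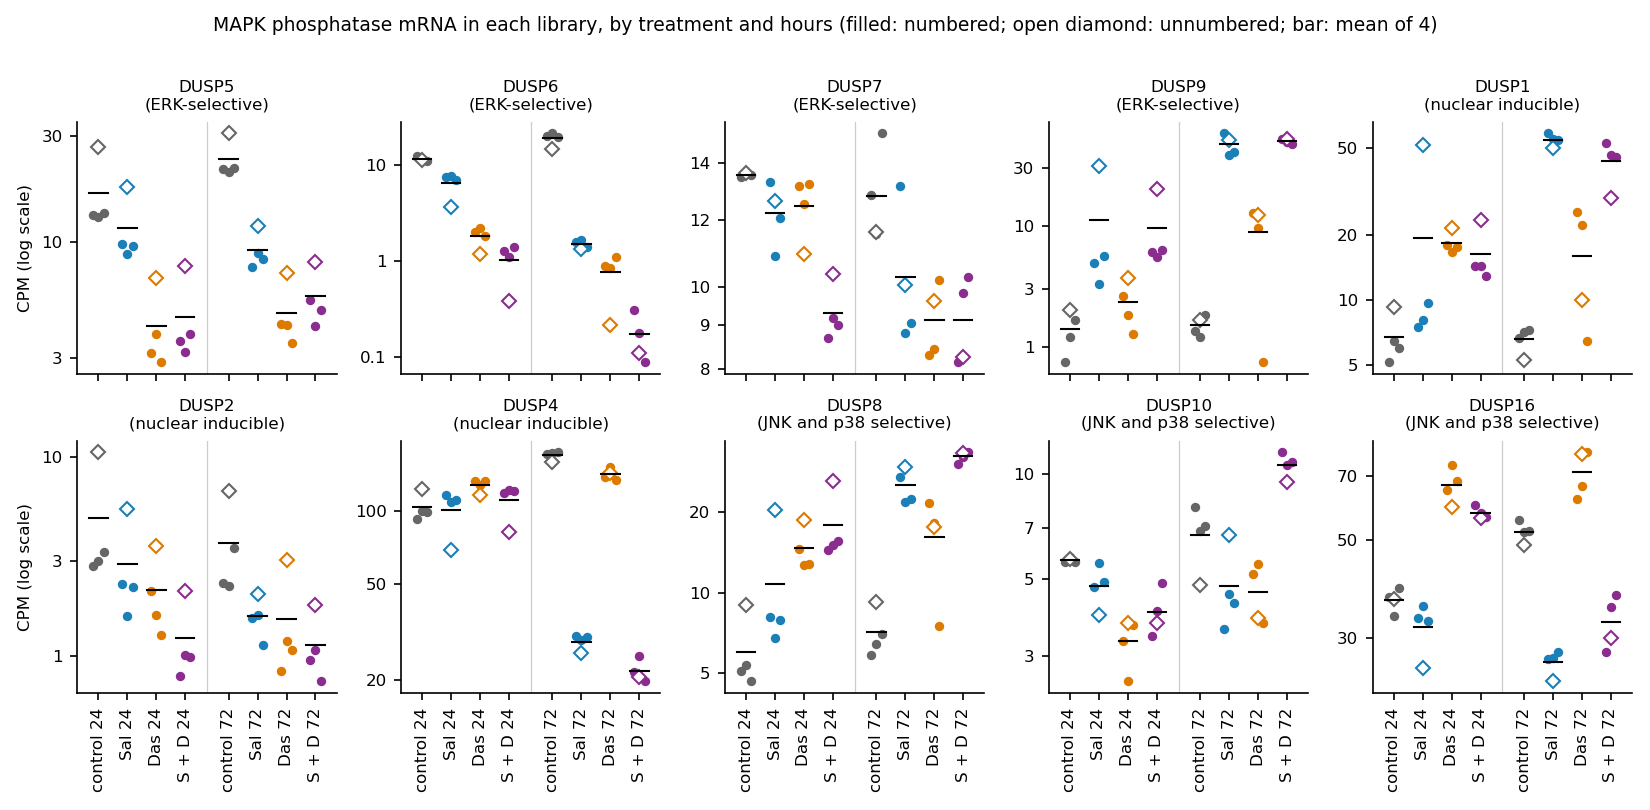
CPM of each phosphatase mRNA in all 32 libraries (log axis), by treatment and hours; filled points are numbered libraries, open diamonds the libraries without a number, and bars the mean of 4. DUSP6 falls from a mean of 19.2 CPM in the 72 h control to at most 0.316 CPM with S + D, while DUSP9 and DUSP1 climb with Sal and S + D and the open diamond of Sal at 24 h lies far above its group for both.

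At 24 h fewer members were called than at 72 h with all libraries, but not with Das or S + D in the numbered libraries alone. With Sal, 1 member was higher and 0 were lower (edgeR), against 4.52% and 2.21% of 16357 genes. At an unadjusted p under 0.05, 3 were higher and 2 lower, and DESeq2 called 1 and 0, with no share of all genes taken for either. With Das, 2 were higher and 3 lower, against 6.96% and 6.83%, and with S + D, 3 were higher and 4 lower, against 17.0% and 16.4%. In the numbered libraries alone, Sal gave 4 higher and 2 lower members, Das 4 higher and 4 lower and S + D 5 higher and 5 lower, against 12.7% and 10.9%, 20.6% and 18.8%, and 28.7% and 29.5% of all genes. With the replicate number as a block, 6 members were called with Sal.

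DUSP6 had already fallen at 24 h with Das. Control libraries stood at 12.7, 11.5, 11 and 11.5 CPM, Sal at 7.66, 7.78, 7.0 and 3.71 CPM, Das at 2.02, 2.22, 1.84 and 1.21 CPM and S + D at 1.27, 1.10, 1.41 and 0.384 CPM. No treated library overlapped the controls. The fitted log2 change was -2.68 ± 0.30 with Das (adjusted p = 1.26e-05) and -3.46 ± 0.32 with S + D (adjusted p = 4.6e-07), while Sal gave -0.86 ± 0.28 (adjusted p = 0.0510), or -0.66 with numbered libraries only (adjusted p = 2.54e-05).

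DUSP5 fell at 24 h by 1.98 on the log2 scale with Das (SE 0.36, adjusted p = 0.00074) and by 1.83 with S + D (SE 0.35, adjusted p = 0.000553). Its numbered libraries stood at 12.9 to 13.5 CPM in the control, 2.86 to 3.81 CPM with Das and 3.17 to 3.84 CPM with S + D. With Sal it gave -0.55 (adjusted p = 0.322), and with numbered libraries only it was called lower (-0.49, adjusted p = 0.000351). DUSP7 fell by 0.52 with S + D (adjusted p = 0.000298), from 13.6 ± 0.0792 to 9.31 ± 0.716 CPM (SD, n = 4).

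DUSP9 rose at 24 h with Sal and with S + D, with a wide spread. It stood at 0.749, 1.21, 1.69 and 2.03 CPM in the control, at 4.98, 3.34, 5.65 and 31.0 CPM with Sal and at 6.04, 5.5, 6.39 and 20.4 CPM with S + D. The libraries without a number were the highest in both groups, yet all numbered treated libraries also lay above the controls. The log2 change was 2.95 ± 0.68 with Sal (adjusted p = 0.00872) and 2.76 ± 0.68 with S + D (adjusted p = 0.0035), and these calls were lost in 11 and 4 of 16 fits that left out 1 library. Without the unnumbered Sal library the first was 1.70 (adjusted p = 0.0325), without the unnumbered S + D library the second was 2.09 (adjusted p = 0.0146), and with numbered libraries only they were 1.94 (adjusted p = 6.92e-06) and 2.30 (adjusted p = 1.08e-07).

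For DUSP1 with Sal the library without a number lay far above the others. It stood at 5.15, 6.44, 5.99 and 9.24 CPM in the 24 h control, at 7.47, 8.05, 9.65 and 51.6 CPM with Sal, at 17.9, 16.6, 17.6 and 21.4 CPM with Das and at 14.4, 14.3, 12.8 and 23.3 CPM with S + D. All Das and S + D libraries lay above all controls, and no change was called (adjusted p = 0.0425 with Das and 0.0427 with S + D). Without the unnumbered Sal library both passed, at 1.46 (adjusted p = 5.72e-05) and 1.27 (adjusted p = 8.27e-05), and with numbered libraries only the log2 change was 0.51 with Sal (adjusted p = 0.00113), 1.58 with Das (adjusted p = 3.08e-10) and 1.23 with S + D (adjusted p = 4.48e-09).

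DUSP4 stood at 92.9 to 123 CPM in the 24 h control and did not pass the test with any drug, with log2 changes from -0.05 for Sal to 0.31 for Das. With numbered libraries only it was higher with each treatment, by 0.20 with Sal (adjusted p = 0.0031), 0.45 with Das (adjusted p = 2.25e-07) and 0.31 with S + D (adjusted p = 1.14e-05). DUSP2 fell by 1.98 with S + D (SE 0.51, adjusted p = 0.00479), a value of -1.31 without the unnumbered control (adjusted p = 0.0255) and -1.71 with numbered libraries only (adjusted p = 3.86e-07). Its call was also lost without each of the numbered S + D libraries. With Das DUSP2 gave -1.18 (adjusted p = 0.0938), or -0.84 with numbered libraries only, which were called lower (adjusted p = 0.000736).

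In the JNK and p38 class at 24 h, DUSP16 rose with Das and with S + D. It stood at 37.2, 33.6, 38.9 and 36.8 CPM in the control, at 33.2, 35.4, 32.7 and 25.6 CPM with Sal, at 65.0, 74.2, 68.3 and 59.5 CPM with Das and at 60.2, 57.8, 56.3 and 56.1 CPM with S + D. The Das and S + D libraries lay above all others. Its log2 change was 0.87 ± 0.10 with Das (adjusted p = 1.97e-05) and 0.67 ± 0.10 with S + D (adjusted p = 7.13e-05).

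DUSP8 rose at 24 h by 1.29 with Das (SE 0.32, adjusted p = 0.0082) and by 1.59 with S + D (SE 0.32, adjusted p = 0.000873). The first call was lost in 11 of 16 fits that left out 1 library, up to an adjusted p of 0.0326 without control replicate 3, and with numbered libraries only it was 1.42 (adjusted p = 3.97e-10). With Sal DUSP8 gave 0.81 (adjusted p = 0.108), or 0.59 with numbered libraries only, which were called higher (adjusted p = 0.000126). DUSP10 fell by 0.77 with Das (SE 0.16, adjusted p = 0.00186), from 5.57 to 5.78 CPM in the controls to 2.53 to 3.73 CPM, and gave -0.48 with S + D (adjusted p = 0.0188, or 0.00666 with numbered libraries only).

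The single drugs were also compared directly. At 24 h, Das against Sal had 1 member higher and 1 lower, against 4.26% and 3.64% of all genes: DUSP16 was higher by 1.10 on the log2 scale (adjusted p = 4.08e-06) and DUSP6 lower (-1.82, adjusted p = 0.000695). In the numbered libraries alone, 4 were higher (DUSP1, DUSP4, DUSP8 and DUSP16) and 4 lower (DUSP5, DUSP6, DUSP9 and DUSP10), against 13.4% and 15.7%, and with the replicate number as a block 5 were called. DUSP1 gave -0.03 with all libraries, but 1.07 with numbered libraries only (adjusted p = 7.77e-08) and 1.15 without the unnumbered Sal library (adjusted p = 0.00204).

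At 72 h, Das against Sal had 2 members higher and 3 lower, against 16.9% and 15.2% of all genes. DUSP4 was 4.93-fold higher with Das (log2 2.30 ± 0.10, adjusted p = 1.32e-10) and DUSP16 2.71-fold higher (1.44 ± 0.12, adjusted p = 1.41e-07). DUSP9 (-2.41 ± 0.45, adjusted p = 0.000385), DUSP1 (-1.78 ± 0.31, adjusted p = 0.000196) and DUSP5 (-0.94 ± 0.24, adjusted p = 0.0047) were lower. DUSP6 gave -0.98 (95% interval from -1.69 to -0.27, adjusted p = 0.0240). The DUSP5 call was lost in 5 of 16 fits without 1 library, up to an adjusted p of 0.0167 without the unnumbered Sal library.

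S + D was compared with each single drug at 72 h. Against Sal, 1 member was higher and 1 lower, against 1.42% and 1.58% of all genes. DUSP10 was 2.23-fold higher (1.16 ± 0.21, adjusted p = 0.00204, and 0.0104 without Sal replicate 3, which ended the call) and DUSP6 8.53-fold lower (-3.09 ± 0.41, adjusted p = 0.000186). With numbered libraries only DUSP5 was lower as well (-0.77, adjusted p = 0.00318), and with the replicate number as a block 4 were called. For DUSP9 the 95% interval of the difference ran from -0.80 to 0.98 and for DUSP1 from -0.95 to 0.30.

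Against Das, S + D had 4 members higher and 3 lower, where 14.3% and 17.7% of all genes were. DUSP9 (2.5 ± 0.45, adjusted p = 0.000278), DUSP1 (1.46 ± 0.31, adjusted p = 0.000959), DUSP10 (1.23 ± 0.21, adjusted p = 0.000137) and DUSP8 (1.00 ± 0.23, adjusted p = 0.00196) were higher. DUSP4 (-2.70 ± 0.10, adjusted p = 3.3e-11), DUSP6 (-2.11 ± 0.43, adjusted p = 0.000771) and DUSP16 (-1.12 ± 0.12, adjusted p = 1.63e-06) were lower. DUSP7 gave 0.00 (95% interval from -0.32 to 0.32).

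The interaction compares S + D with the sum of the single log2 changes, where 0 stands for a change equal to that sum. At 72 h, 2 members had a positive interaction and 0 a negative one (edgeR), against 3.41% and 4.07% of all genes. At an unadjusted p under 0.05, 3 were positive and 3 negative, and DESeq2 called 2 and 2, with no share of all genes taken for either. DUSP10 had the larger, 1.72 ± 0.29 (adjusted p = 0.00103): its means were 6.70 CPM in the control, 4.77 under Sal, 4.57 under Das and 10.7 under S + D. DUSP5 had 1.62 ± 0.34 (adjusted p = 0.00427): its change with S + D, -2.06, was smaller than the -1.37 and -2.31 of the single drugs would sum to. This DUSP5 call was lost in 5 of 16 fits without 1 library (Sal replicates 1 to 3 and Das replicates 1 and 2), up to an adjusted p of 0.0113.

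The other 8 members did not pass. DUSP9 gave -2.44 (95% interval from -3.80 to -1.08, adjusted p = 0.0149) and DUSP1 -1.59 (from -2.5 to -0.68, adjusted p = 0.0165). Without replicate 3 of Das these became -2.83 (adjusted p = 5.62e-07) and -1.85 (adjusted p = 0.000766), and DUSP8 -1.05 (adjusted p = 0.00125), so that 5 members were called. DUSP6 gave 1.57 (from 0.38 to 2.77, adjusted p = 0.0616), while DUSP4 gave -0.13 (from -0.42 to 0.16) and DUSP16 -0.12 (from -0.47 to 0.22).

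**Figure D3:**
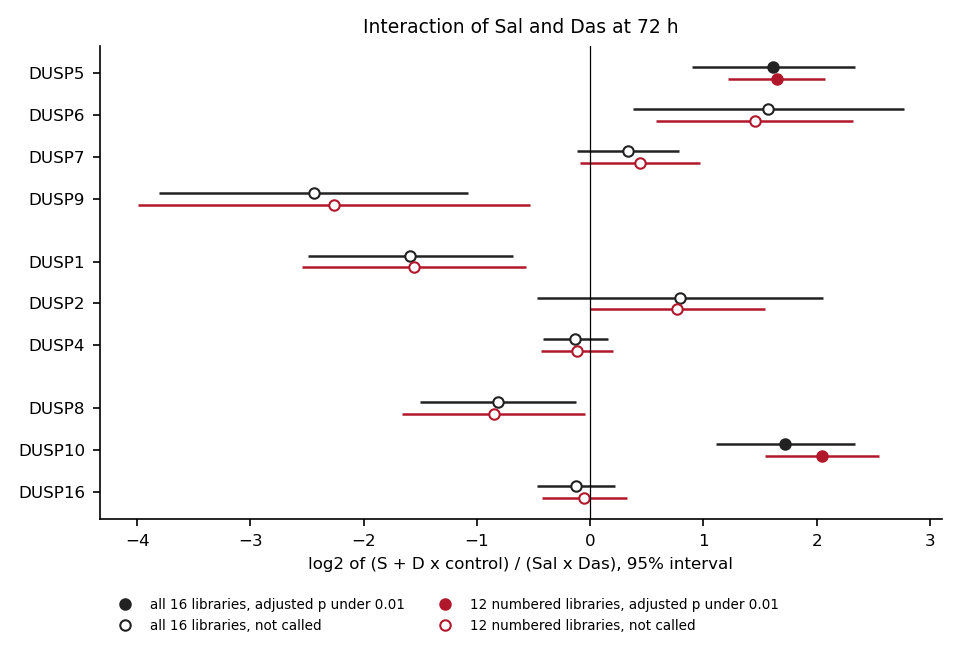
Interaction of Sal and Das at 72 h for each phosphatase mRNA on the log2 scale, with 95% intervals, from all 16 libraries (black) and from the 12 numbered ones (red); filled points have an adjusted p under 0.01. DUSP5 and DUSP10 lie above 0 in both fits, and the intervals of DUSP9 and DUSP1 lie below 0 without passing the threshold.

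At 24 h, 0 members had an interaction in either direction (edgeR), against 0% and 0.0306% of all genes. At an unadjusted p under 0.05, 1 was positive and 1 negative, and DESeq2 called 0 and 0, with no share of all genes taken for either. In the numbered libraries alone, DUSP1 (-0.86, adjusted p = 0.000586) and DUSP4 (-0.34, adjusted p = 0.00247) were negative, where 4.55% of all genes were.

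Between 24 and 72 h the control itself moved: 2 members were higher and 0 lower (edgeR), against 2.00% and 0.760% of 17227 genes. At an unadjusted p under 0.05, 3 were higher and 0 lower, and DESeq2 called 2 and 0, with no share of all genes taken for either. DUSP4 rose by 0.71 ± 0.13 on the log2 scale (adjusted p = 0.000823) and DUSP16 by 0.51 ± 0.10 (adjusted p = 0.00261). The DUSP16 call was lost without control replicate 1 or 2 of 24 h or replicate 1 of 72 h, up to an adjusted p of 0.0204. With numbered libraries only DUSP5 (0.67, adjusted p = 0.000125) and DUSP6 (0.81, adjusted p = 5.72e-05) were higher too.

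The response to Sal, as its log2 change against the control of the same time, differed between 72 and 24 h for 3 members in the downward direction and for 0 upward (edgeR), against 13.6% and 8.17% of all genes. At an unadjusted p under 0.05, 3 were upward, and DESeq2 called 0, with no share of all genes taken for either. DUSP6 differed by -2.82 (adjusted p = 1.12e-05), DUSP4 by -2.51 (adjusted p = 1.87e-10) and DUSP16 by -0.76 (adjusted p = 0.000221). Without the unnumbered 24 h Sal library, DUSP1 (2.76, adjusted p = 8.31e-06), DUSP9 (3.28, adjusted p = 0.000891) and DUSP8 (1.52, adjusted p = 0.00126) joined upward, so that 6 were called. In the numbered libraries alone 7 were called, these 6 and DUSP5 downward (-0.86, adjusted p = 0.000114). There 16.9% of all genes differed upward and 22.4% downward. With the replicate number as a block 5 were called.

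The response to Das had 0 members called in either direction (edgeR), against 0.0522% and 0.174% of all genes. At an unadjusted p under 0.05, 0 were upward and 4 downward, and DESeq2 called 0 and 1, with no share of all genes taken for either. The closest was DUSP6 (-1.96, adjusted p = 0.0250), which passed without replicate 3 of Das at 72 h (-2.21, adjusted p = 0.00606), without the unnumbered S + D library of 24 h (adjusted p = 0.00954) and with numbered libraries only (-1.90, adjusted p = 5.14e-06). DUSP4 gave -0.55 (adjusted p = 0.128), or -0.73 with numbered libraries only, which were called downward (adjusted p = 8.65e-05).

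The response to S + D had 1 member called upward and 3 downward, against 6.15% and 10.1% of all genes. DUSP10 moved from -0.48 at 24 h to 0.67 at 72 h (difference 1.19, adjusted p = 0.000882). DUSP16 moved from 0.67 to -0.68 (difference -1.30, adjusted p = 3.42e-07), a change of sign in which both time points passed the test. DUSP4 differed by -3.04 (adjusted p = 6.59e-12) and DUSP6 by -3.26 (adjusted p = 3.81e-05). DUSP9 was called upward only without the unnumbered S + D library of 24 h (2.98, adjusted p = 0.00914) or with numbered libraries only (2.79, adjusted p = 0.00644), and DUSP1 only without the unnumbered Sal library of 24 h (1.48, adjusted p = 0.00465) or with numbered libraries only (1.57, adjusted p = 0.00223).

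Per length, the order of the members turned over. Levels as CPM per kilobase of exon put DUSP4 first in the 72 h control at 23.3 ± 1.02 (SD, n = 4), then DUSP5 at 9.33 ± 1.94, DUSP16 at 7.33 ± 0.391 and DUSP6 at 4.98 ± 0.802, each with a range apart from the next, and DUSP9 last at 0.549 ± 0.104. With Sal at 72 h DUSP1 was first at 27.2 ± 1.71, and then came DUSP9 at 17.1 ± 3.35 and DUSP8 at 5.07 ± 0.742, each apart from the next, while DUSP4 (3.96 ± 0.291), DUSP16 and DUSP5 overlapped in turn. With S + D the first 3 were the same, with DUSP1 (21.7 ± 4.98) and DUSP9 (18.1 ± 0.793) overlapping. With Das, DUSP4 stayed first (19.5 ± 1.07), apart from DUSP16 (10.0 ± 1.21), which overlapped DUSP1 (7.94 ± 4.56). DUSP6 was last in each treated group at 72 h.

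The summed level per kilobase was 56.8 ± 0.842 in the 72 h control, 65.4 ± 4.69 under Sal, 50.1 ± 6.97 under Das and 62.2 ± 4.27 under S + D. The ERK-selective class held 30.2 ± 1.77% of the sum in the 72 h control, 34.9 ± 3.41% under Sal, 13.5 ± 3.45% under Das and 35.6 ± 4.14% under S + D. Its Das range, from 9.38 to 17.6%, lay apart from the others. The JNK and p38 class held 19.6 ± 1.11%, 16 ± 1.15%, 30.1 ± 3.63% and 24.0 ± 1.93%, with the Das libraries, from 27.1 to 34.9%, above all others.

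The ERK-selective share of control, Sal and S + D was made up of different members. Without DUSP9, the ERK-selective share was 29.2 ± 1.68% in the 72 h control, 8.93 ± 0.926% under Sal, 7.5 ± 1.54% under Das and 6.33 ± 1.37% under S + D, and the control range, from 28.3 to 31.7%, lay above all treated libraries. DUSP9 alone held 0.963 ± 0.166% in the control, 26 ± 3.24% under Sal, 6.04 ± 3.72% under Das and 29.3 ± 2.84% under S + D. In the nuclear class DUSP4 went from 41.1 ± 1.93% to 6.08 ± 0.629% with Sal and DUSP1 from 5.76 ± 0.801% to 41.7 ± 3.28%.

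At 24 h the ERK-selective share was 30.3 ± 1.13% in the control, 26.4 ± 3.33% under Sal, 11.1 ± 1.39% under Das and 15.8 ± 5.69% under S + D. The JNK and p38 share was 20.7 ± 2.52%, 19.2 ± 4.05%, 29.1 ± 1.10% and 29.7 ± 0.83%. The Das and S + D libraries lay apart from control and Sal in the second share, with a lowest value of 27.9% against a highest of 22.7%.

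**Figure D4:**
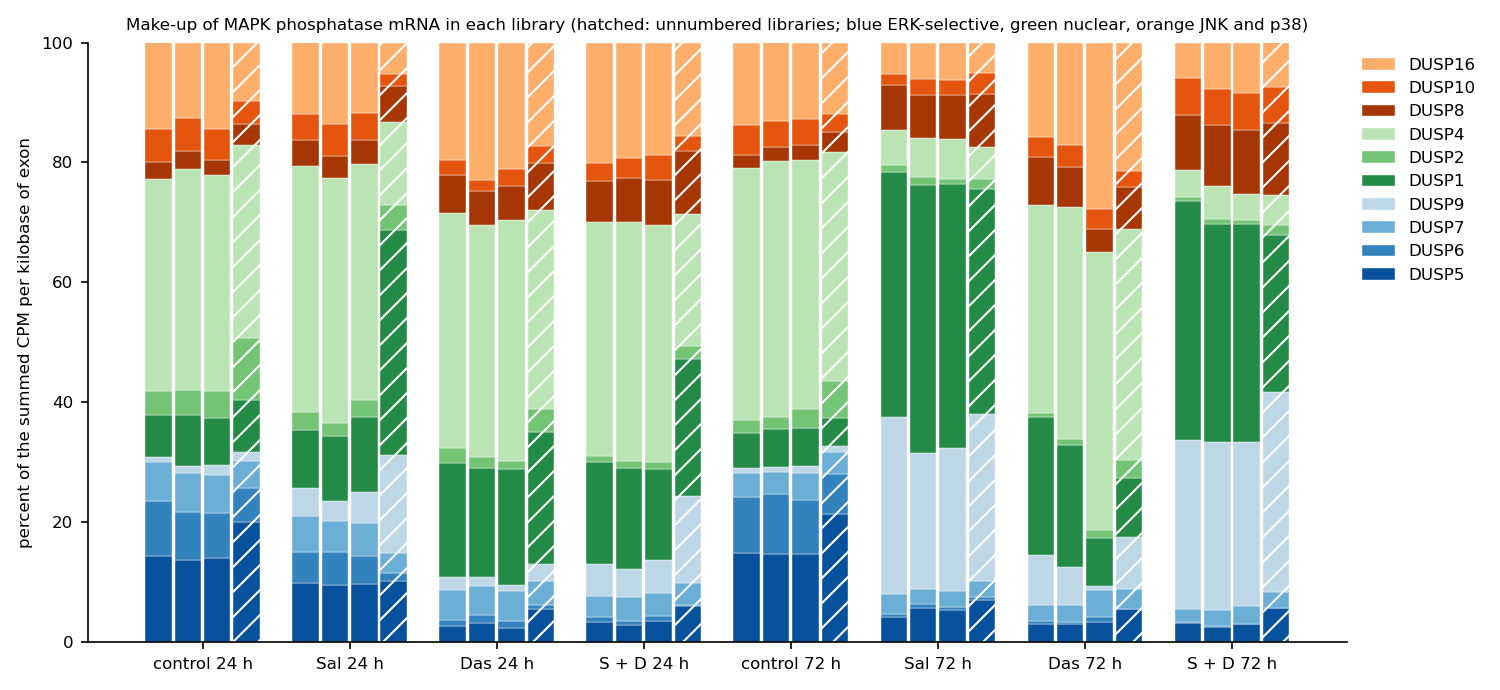
Share of each member in the summed CPM per kilobase of exon of the 10 phosphatases (percent, vertical axis), 1 bar per library, grouped by treatment and hours; blue members are ERK-selective, green nuclear and orange JNK and p38 selective, and hatched bars are the libraries without a number. With Sal and S + D at 72 h DUSP1 and DUSP9 take the place that DUSP4 and DUSP5 have in the control, and with Das the orange share is larger than in the other 72 h groups.

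Counts and medians were also taken by class. With Das at 24 h the median log2 change was -1.05 for the 4 ERK-selective genes, of which 2 were lower, and 0.87 for the 3 JNK and p38 genes, of which 2 were higher and 1 lower, against a median of 0.02 for all genes tested, of which 6.96% were higher and 6.83% lower. With Das at 72 h the medians were -1.40 (1 higher, 2 lower) and 0.44 (2 higher), against 10.4% of all genes higher and 9.32% lower. With S + D at 72 h they were -1.28 (1 higher, 3 lower) and 0.67 (2 higher, 1 lower), against 0.01 for all genes, 26.9% of them higher and 27.8% lower. With Sal at 72 h both were negative, at -0.85 (1 higher, 2 lower) and -0.49 (1 higher, 1 lower), against 26.3% of all genes higher and 26.8% lower. In the numbered libraries alone the Sal medians were -0.87 (1 higher, 2 lower) and -0.84 (1 higher, 2 lower), against 27.8% and 29.6%. Those of Das at 72 h were -1.49 (1 higher, 2 lower) and 0.36 (1 higher, 1 lower), against 11.2% and 11.5%. Those of S + D at 72 h were -1.32 (1 higher, 2 lower) and 0.58 (2 higher, 1 lower), against 28.4% and 29.6%. The median of a class of this size rests on 1 or 2 genes, and classes were not tested against each other.

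Other ERK output genes moved in the direction of DUSP6. Of 8 such genes at 72 h, Sal lowered 7, Das 7 and S + D 8, and none of the treatments raised any (edgeR, with DESeq2 at 8, 7 and 8 lower and 0 higher, and 0 higher at an unadjusted p under 0.05), where 26.8%, 9.32% and 27.8% of all genes were lower. Their median log2 changes were -2.25, -1.90 and -3.77. In the numbered libraries alone, Sal lowered 8, Das 7 and S + D 8, where 29.6%, 11.5% and 29.6% of all genes were lower. SPRY4, an inhibitor of receptor signaling to ERK, stood at 34.4 ± 2.11 CPM in the 72 h control, 5.82 ± 0.843 under Sal, 0.793 ± 0.383 under Das and 1.62 ± 0.630 under S + D (SD, n = 4). ETV5, an ETS factor downstream of ERK, fell by 1.53 under Sal, 5.85 under Das and 5.21 under S + D on the log2 scale, and CCND1, the cyclin of G1, by 2.54, 2.13 and 3.99. Against Das at 72 h, S + D had 4 of the 8 lower and 2 higher, with a median of -0.43, against 17.7% and 14.3% of all genes. PHLDA1 (-2.14), EPHA4 (-2.13), CCND1 (-1.86) and SPRY2 (-0.59), a relative of SPRY4, were lower, as DUSP6 was, while SPRY4 (1.01, adjusted p = 0.00857) and ETV4 (0.96, adjusted p = 0.00942) were higher.

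At 24 h, 3 of these 8 genes fell with Sal, 5 fell and 1 rose with Das, and 7 fell with S + D, where 2.21%, 6.83% and 16.4% of all genes were lower and 6.96% higher with Das. EPHA4, an ephrin receptor, was the 1 that rose with Das (0.75). Numbered libraries alone had 5 lower with Sal, 6 lower and 1 higher with Das, and 7 lower with S + D. Of all genes there, 10.9%, 18.8% and 29.5% were lower, and 20.6% were higher with Das. The interaction at 24 h was called for 0 of the 8 with all libraries, against 0% and 0.0306% of all genes. With numbered libraries only it was negative for 2, where 4.55% of all genes were. The interaction at 72 h was positive for 3 of the 8 and negative for 0 (edgeR), against 3.41% and 4.07% of all genes. At an unadjusted p under 0.05 the counts were 6 and 0, and by DESeq2 5 and 0. The median over the list was 0.88. With numbered libraries only, 4 were positive and 0 negative, against 6.66% and 6.26% of all genes.

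The kinases of the MAPK cascades had small median changes. Of 20 kinases of these cascades, Sal at 72 h raised 3 and lowered 8, Das raised 1 and lowered 0 (7 lower at an unadjusted p under 0.05, and 3 lower by DESeq2), and S + D raised 2 and lowered 8, with medians of -0.28, -0.11 and -0.23. Of all genes, Sal raised 26.3% and lowered 26.8%, Das 10.4% and 9.32%, and S + D 26.9% and 27.8%. With numbered libraries only, Sal raised 2 and lowered 9, Das 1 and 4, and S + D 1 and 8. There the shares of all genes were 27.8% and 29.6%, 11.2% and 11.5%, and 28.4% and 29.6%. Of 7 in the ERK branch, BRAF rose with Sal (0.78) while MAPK3, which encodes ERK1, fell (-0.82). MAP2K6, a kinase that activates p38, was the 1 that rose with Das, at 24 h by 2.48 and at 72 h by 1.75, from 2.33 ± 0.594 to 7.91 ± 1.74 CPM at 72 h. MAPK12, which encodes p38 gamma, fell by 1.48 with Sal and 1.38 with S + D, and MAPK10, which encodes JNK3, by 2.35 and 3.44. At 72 h MAPK10 stood low, at means of 1.97 CPM in the control, 0.389 under Sal and 0.18 under S + D.

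Of 13 other dual-specificity phosphatases listed, 12 were found in the table and 9 were tested at 72 h. With Sal 5 rose and 1 fell, with Das 0 did either (edgeR, with 3 higher and 1 lower at an unadjusted p under 0.05 and 0 by DESeq2), and with S + D 5 rose and 1 fell, with medians of 0.48, 0.08 and 0.47. Over all genes tested, 26.3% rose and 26.8% fell under Sal, 10.4% rose and 9.32% fell under Das, while for S + D these shares were 26.9% and 27.8%. DUSP11, which acts on RNA, rose by 0.81 with Sal and 0.72 with S + D, DUSP28 by 0.98 and 0.91, and DUSP18 fell by 1.13 and 0.89. DUSP3, a small phosphatase of ERK and JNK, rose by 0.40 with S + D.

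The genes whose 8 group means followed DUSP6 most closely, among 13723 genes compared by Pearson's r, were H19 and S100A9 (r = 0.993 for each), VDR (0.991), NXT2 (0.990) and S100A8 (0.989). For DUSP10 they were STBD1 (0.957), EEPD1 (0.951), PACSIN2 (0.929), BSPRY (0.927) and ZNF669 (0.923). These r are over 8 group means that share libraries across genes and are descriptions of likeness without a test.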

How the data were processed

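The authors prepared TruSeq libraries, demultiplexed reads with bcl2fastq 2.19, aligned them to GRCh37 with STAR 2.5.2 and computed FPKM with Cufflinks 2.1.1 and tested differential expression with DESeq2. Raw counts per Ensembl gene, not normalized, make up the deposited table. Its counting program, annotation and strand setting are not given in the sources used here. Symbols and coordinates came from a GRCh37 annotation, which matched 46537 of 48804 identifiers. DUSP14 was not matched.

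Counts were fitted with edgeR 4.0.16 in R 4.3.3 (TMM, filterByExpr with a minimum count of 10, robust quasi-likelihood fit) over the 16 libraries of a time point, or all 32 for comparisons of time. SE values were derived from the F statistic. CPM used TMM factors over 32 libraries, and CPM per kilobase the exon union. Alternatives were RLE factors, no filter, a replicate block, numbered libraries only, a term for unnumbered libraries, DESeq2 1.42.0, the study's cutoffs together (adjusted p under 0.01 and absolute log2 change above 1.5) and leave-one-out fits. 1 alternative was added after seeing the data. The members, classes and lists were chosen with earlier results of these data known. The edgeR and DESeq2 fits were tested on counts simulated for the 72 h libraries. That simulation gave all genes the same spread and no shift of the unnumbered libraries, so it does not cover such a shift.

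Replicate numbers did not pair the numbered libraries (correlations from -0.11 to 0.12 at 24 h and from -0.24 to 0.088 at 72 h). Named were the 10 members, genes of the lists and the 5 nearest patterns of DUSP6 and DUSP10.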

Additional observations from a re-analysis of the deposited data

Results flagged for a closer look

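Each of the 10 members in each of the 8 groups gave a set of 4 libraries, 80 sets in all. In 13 of them the gap of 1 library to its nearest neighbor, over the whole range, passed Dixon's critical value. Chance alone gives about 1 in 20 such sets. The sets of different members share libraries and are not independent, so 13 of 80 was not tested against this share. In 12 of the 13 the library set apart was the one without a number. At 24 h it was the highest for DUSP5 in the control (gap over range 0.944) and with Sal (0.850), for DUSP2 in the control (0.879), for DUSP1 with Sal (0.868), for DUSP8 with Sal (0.841) and S + D (0.870) and for DUSP9 with S + D (0.886). At 24 h it was the lowest for DUSP6 with Sal (0.858) and for DUSP4 with Sal (0.876) and S + D (0.935). At 72 h it was the highest control for DUSP5 (0.903) and the lowest control for DUSP4 (0.869). The remaining library was replicate 3 of Das at 72 h, the lowest for DUSP9 (0.896), which also lay lowest of its group for DUSP1 at 6.44 CPM and for DUSP8 at 7.5 CPM. The part of preparation or sequencing in these gaps was not tested.

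The response to a treatment differed between 24 and 72 h by the interaction term of the edgeR fit of all 32 libraries for 3 members with Sal and 4 with S + D. For Sal the difference was -2.82 for DUSP6, -2.51 for DUSP4 and -0.76 for DUSP16 on the log2 scale. For S + D it was -3.26 for DUSP6, -3.04 for DUSP4, 1.19 for DUSP10 and -1.30 for DUSP16. Numbered libraries alone called all 7 as well.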

How the results depend on the processing

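Of 451 recomputed counts of called members, 392 stayed within 1.5 times of the reported count and 59 did not. Values of single members were counted only where the member was called in that comparison under any setting. Sign changes called in neither fit were left out of the count. They arose in 22 member comparisons, with main log2 changes up to 0.94 in size. Of 2788 recomputed values so counted, 2570 kept their direction and their side of the threshold, 90 lost and 125 gained a call, and 3 reversed. All 3 concern 24 h: DUSP4 with Sal (-0.05) was 0.20 with numbered libraries only, and DUSP1 in Das against Sal (-0.03) was 1.07 with numbered libraries only and 1.15 without the unnumbered Sal library. The cause of these changes was not tested.

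In the order Sal, Das, Das against Sal and interaction at 24 h, numbered libraries only called 6, 8, 8 and 2 members. Of all genes they called 12.7% higher and 10.9% lower, 20.6% and 18.8%, 13.4% and 15.7%, and 0.609% and 4.55%. For the responses to Sal and to Das and for the control over time, they called 7, 2 and 4. Here the shares of all genes were 16.9% and 22.4%, 0.786% and 2.77%, and 7.04% and 3.99%. Shares over all genes were taken only by edgeR at an adjusted p under 0.01, with all libraries and with numbered libraries. The other counts have no such share beside them. A term for unnumbered libraries called 6 with Sal, 5 in Das against Sal and 1 for the interaction at 24 h, 4 in S + D against Sal and 4 for the interaction at 72 h, and 5, 1 and 4 for the responses to Sal and to Das and the control over time. The replicate block called 6 with Sal and 5 in Das against Sal at 24 h, 4 in S + D against Sal at 72 h, and 5 and 1 for the responses to Sal and to Das, and moved no other count by over 1.5 times. The numbers do not pair the numbered libraries, and the block mainly absorbs the libraries without a number. DESeq2 called 4 in Das against Sal at 24 h, 4 for the interaction at 72 h and 1 for the response to Das. Without a filter, 0 were called with Sal at 24 h and 1 in the control over time.

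With an absolute log2 change above 1.5 as well, 2 were called with Das and 1 in Das against Sal at 24 h. At 72 h, 3 were called with Das, 3 in Das against Sal, 1 in S + D against Sal and 3 in S + D against Das. For the response to S + D this gave 2 and for the control over time 0. Fewer genes can pass because this threshold is added to the first. Numbered libraries without replicate 3 of Das at 72 h, chosen after seeing the data, gave 5 in S + D against Sal and 6 for the interaction at 72 h.

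Leaving out 1 library at a time gave 0 to 1 with Sal at 24 h, 1 to 2 in S + D against Sal and 1 to 5 for the interaction at 72 h, 3 to 6 for the response to Sal, 0 to 1 for the response to Das and 1 to 2 for the control over time. DUSP1 in Das against Sal at 24 h ranged from -0.31 to 1.15. At S + D levels DUSP6 rests on 3 to 10 reads a library, which limits its fold change.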
